A study of Homo sapiens with 6 samples.

Results

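The tRNA genes near 8 Mb of chromosome 17 form one of the tRNA gene clusters of the human genome. In the table of raw counts, 20 of 53603 windows, and 20 of 534 tRNA windows, carried the class label tRNA and started between positions 8000000 and 8400000 of chromosome 17 (GRCh38). The small RNA libraries came from HEK293T, an established line derived from human embryonic kidney and labelled epithelial, collected 48 h after transfection with 150 nM siRNA. The Control knockdown arm received a control siRNA and the La knockdown arm an siRNA against La, the protein encoded by SSB, with 3 libraries in each arm, described as biological replicates. Both arms were thus transfected, and no untransfected cells were analysed here. The comparison asks how small RNA read from start sites depends on La. A window held 150 bases upstream and 250 bases downstream of a start site, so it contained a whole tRNA gene together with its flanks, and reads of the precursor, of the mature tRNA and of their fragments were counted together.

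RNA polymerase III transcribes tRNA genes from promoter elements inside the gene, the A box and the B box, and stops at a run of T just past it. The new transcript therefore ends in U, and La binds such 3′ oligo(U) ends and shields the precursor until its ends are trimmed. Human tRNA gene names give the amino acid, the anticodon, a number for the mature sequence and a number for the gene copy, so genes that differ only in the last number share a mature sequence. Reads of such copies cannot be assigned with certainty to a single gene, and how such reads were handled is not given in the sources used here.

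Of the 20 windows, 18 took a name from a RefSeq tRNA gene (GRCh38.p14) whose start lay exactly at the window's start site. The windows spanned 108.21 kb, from position 8119005 to 8227214, with 9 named genes on each strand and 11 amino acids. By name, 7 of the 18 genes were the only RefSeq copy of their mature sequence and 11 had further copies. The windows formed 5 groups along the chromosome. The first held TRK-TTT3-5, TRQ-CTG1-5, TRL-TAG1-1, TRR-TCT2-1 and TRG-GCC2-6. TRS-CGA1-1 and TRT-AGT5-1 made the second, and TRW-CCA3-3, TRS-GCT4-3, TRT-AGT1-1 and TRI-AAT5-5 the third. The fourth lay within LINC00324, a long non-coding RNA gene, and held TRW-CCA1-1, TRG-TCC3-1, TRD-GTC2-11, TRP-CGG1-3 and both unnamed windows. The fifth, TRT-AGT1-2, TRS-AGA2-6 and TRI-AAT4-1, lay in an annotated untranslated part of CTC1, and TRR-TCT2-1 in one of HES7 (GENCODE release 29). The unnamed window tRNA_52876 overlapped that of TRP-CGG1-3 by 303 bases and had identical counts in every library. The unnamed window tRNA_51403 overlapped that of TRW-CCA1-1 by 213 bases.

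The sequences of TRW-CCA1-1 and TRP-CGG1-3 are shown because, of the genes in the LINC00324 group, these had their whole sequence within an annotated transcript. They are read 5′ to 3′ on the minus strand from the GENCODE release 29 transcript of LINC00324 and run from the start of the gene, at chr17:8220850-8220940 and chr17:8222817-8222904. Each gene is 72 bases long. Capitals mark first the core of the B box (searched as GTTCNANNC, N being any base, on the gene's strand) and then the first run of at least 4 T past the gene.
TRW-CCA1-1: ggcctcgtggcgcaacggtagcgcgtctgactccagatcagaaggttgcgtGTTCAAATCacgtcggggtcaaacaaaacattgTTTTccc
TRP-CGG1-3: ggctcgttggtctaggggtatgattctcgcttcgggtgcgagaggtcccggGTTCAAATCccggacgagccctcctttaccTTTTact

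The B box core stood in all 6 member genes whose sequence was in the reference files, against 0.806% of 35116 RefSeq promoters searched over 72 bases on the given strand. The genes were searched over their whole length, from 72 to 88 bases. Since the B box belongs to tRNA genes in general, its presence describes the members and is not a test. A run TTTT followed within 40 bases in all 7 members whose 3′ flank was in those files, against 15.8% of the promoters over 40 bases. Since RNA polymerase III stops at such runs, their presence likewise describes the members and is not a test. The distance of the run from the gene and its length differed between members. It began 12 bases past TRW-CCA1-1 and 9 bases past TRP-CGG1-3, with 4 T each. It began 5 bases past TRS-AGA2-6 with 7 T, 9 bases past TRI-AAT4-1 with 8 T, and 22 bases past TRT-AGT1-2 with 4 T. In TRR-TCT2-1 it began after 1 base with 4 T, and a longer run of 7 T lay within the 40 bases.

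The flank of TRS-GCT4-3, a serine tRNA gene at positions 8186866 to 8186947 on the plus strand, is annotated as the miRNA gene MIR4521, and its sequence is shown because reads of both fall in the same window. The RefSeq hairpin (GRCh38.p14, chr17:8186945-8187004, plus strand) begins with the last 3 bases of the tRNA gene. The annotated mature miR-4521 of 22 bases begins with the base that follows the tRNA gene and ends where the run of U begins. Capitals mark the first run of 4 U in the hairpin and the seed, bases 2 to 8, in the mature form.
MIR4521 hairpin: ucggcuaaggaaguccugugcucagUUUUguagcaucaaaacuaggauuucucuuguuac
hsa-miR-4521: gCUAAGGAaguccugugcucag

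Total counts over all windows were 3261883 to 4105806 in the control libraries and 3066299 to 3411114 in the La knockdown libraries. The 20 windows held 58852, 35346 and 32765 counts in the control libraries (replicates 1 to 3) and 19643, 15803 and 25288 after La knockdown. The window at the start site of SSB (PCG_40419) had 4, 3 and 3 control counts and 1, 0 and 0 La knockdown counts, too few for the fit. It covers only the promoter and the start of the gene, so it does not measure the level of SSB mRNA. Of 12 genes listed as cell type markers 7 had a window, and 6 of these, KRT8, KRT18, EPCAM and CDH1 among them, had no read in any library. NEFM had 1, 0 and 1 control counts and 0, 4 and 3 La knockdown counts, so the labelled cell type could not be checked in small RNA counts.

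No window of the cluster passed the test between the arms, in either direction. All 20 passed the filter on low counts, and 0 were called lower and 0 higher (quasi-likelihood test of edgeR, p adjusted by Benjamini-Hochberg over all 1064 windows tested and under 0.05), where 4.79% of all windows tested were called lower and 0.658% higher. Of 426 tRNA windows tested outside the cluster, 7.28% were called lower and 0% higher. By the unadjusted p of edgeR, under 0.05, 6 of 20 members were lower and 0 higher, against 14.2% and 9.68% of all windows tested and 26.1% and 0.704% of the other tRNA windows. The 6 included both TRW-CCA1-1 and the overlapping tRNA_51403, whose counts are nearly the same. DESeq2 called 2 members lower, TRL-TAG1-1 and TRK-TTT3-5 (adjusted p = 0.0227 and 0.0126), and 0 higher, where it called 7.14% of all windows tested lower. TRW-CCA1-1 and tRNA_51403 form an overlapping pair of windows. The fitted log2 fold change was negative in 18 of 20 members, where it was negative in 53.2% of all windows tested and 82.4% of the other tRNA windows, and its median was -0.60, beside -0.05 over all windows tested and -0.42 over the other tRNA windows tested. The 18 included that pair and both TRP-CGG1-3 and tRNA_52876, whose counts are identical. With upper quartile factors, which moved the median of all windows up by 0.32, 15 of 20 members were negative. The arms did not overlap in 9 members, all lower in La knockdown, where 17.9% of all windows tested and 34.0% of the other tRNA windows tested were lower without overlap, and 14.1% and 3.05% higher. In bulk libraries such as these, fewer cells that carry an RNA and less of it in each cell cannot be told apart. The fit depended on single libraries: with La knockdown replicate 1 left out 0 of all windows were called lower, and with La knockdown replicate 3 left out 98 of 1139 were, beside 51 of 1064 with all libraries.

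**Figure D1:**
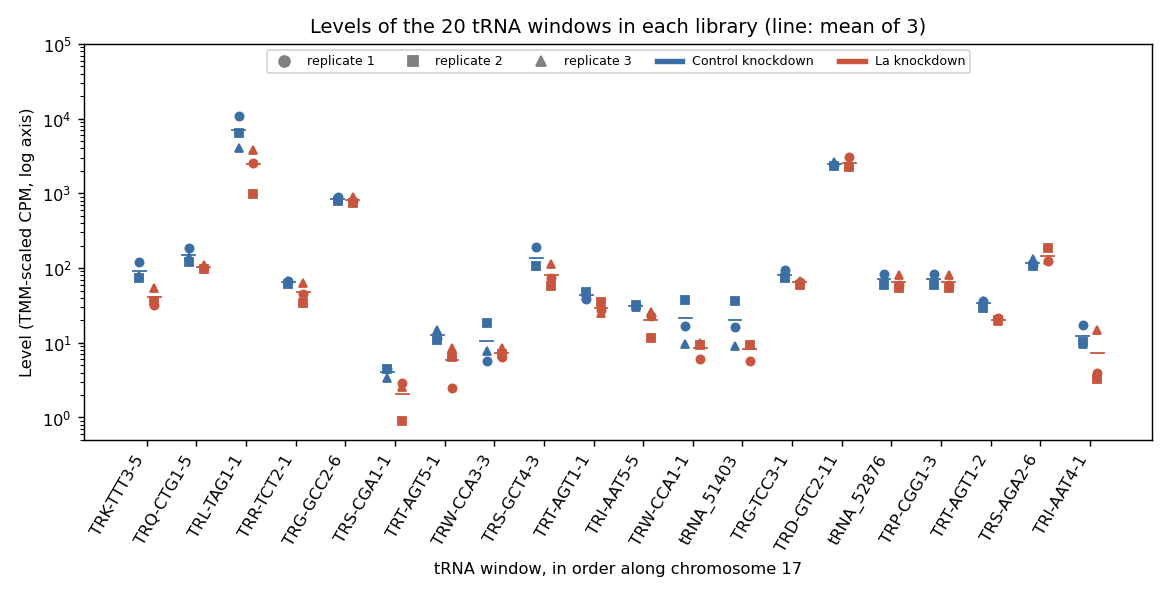
Level of each of the 20 tRNA windows in each library, in CPM (counts scaled to a common library total with TMM factors) on a log axis, in order along chromosome 17. Symbols are replicates, short lines the mean of 3 libraries, blue the Control knockdown and red the La knockdown arm. TRL-TAG1-1, TRD-GTC2-11 and TRG-GCC2-6 stand above the other windows in both arms.

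**Figure D2:**
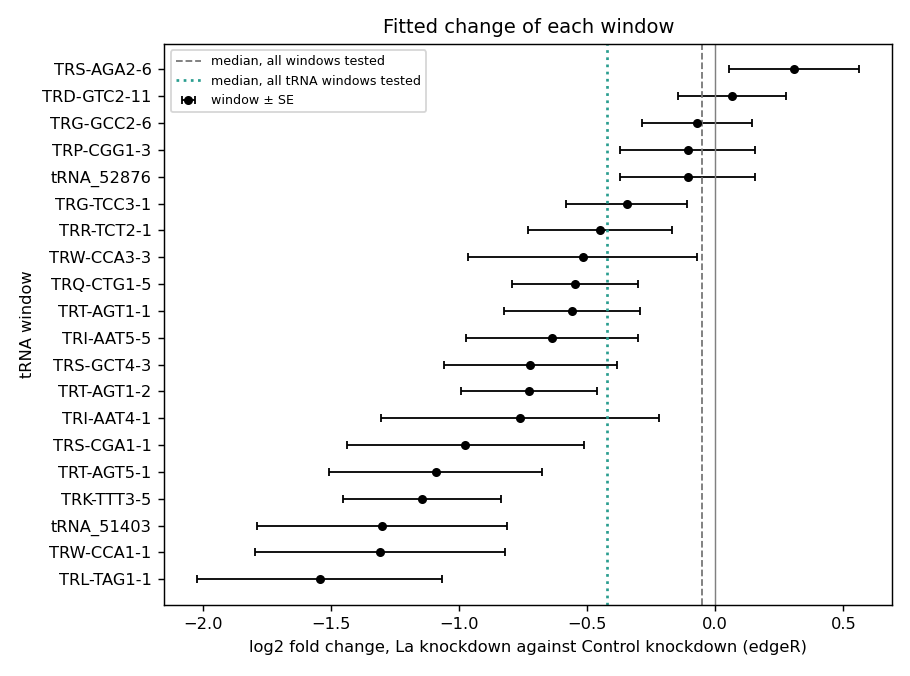
Fitted log2 fold change of each window, La knockdown against Control knockdown, from the edgeR fit of 3 against 3 libraries, with its standard error. Vertical lines give 0 and the medians over all windows and over all tRNA windows tested (-0.05 and -0.42). The windows run from -1.55 (TRL-TAG1-1) to 0.31 (TRS-AGA2-6), and 18 of 20 lie below 0.

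Levels spanned a 1558-fold range between windows of the same length, from a mean of 3.09 CPM for TRS-CGA1-1 to 4808 CPM for TRL-TAG1-1. The next highest were TRD-GTC2-11 with a mean of 2512 CPM and TRG-GCC2-6 with 829 CPM. No other window passed a mean of 132 CPM, the level of TRS-AGA2-6, so the sum over the cluster was mostly the sum of these 3 windows.

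TRL-TAG1-1 encodes the leucine tRNA with anticodon TAG and is the only RefSeq copy of its mature sequence (positions 8120314 to 8120395, minus strand). Its window had 10974, 6409 and 4103 CPM in the control libraries (replicates 1 to 3) and 2543, 969 and 3850 CPM after La knockdown. All La knockdown libraries were below all control libraries, but control replicate 3 and La knockdown replicate 3 lay close together. The mean went from 7162 ± 3497 to 2454 ± 1442 CPM (SD, n = 3), which the fit put at -1.55 on the log2 scale (SE 0.48; adjusted p = 0.0963, edgeR). The size depended on single libraries. Without control replicate 1 the log2 fold change was -1.11 (adjusted p = 0.244, edgeR), and without La knockdown replicate 2 it was -1.18 (adjusted p = 0.166, edgeR). In the other direction it was -2.10 without La knockdown replicate 3 (adjusted p = 0.0371, edgeR) and -1.83 without control replicate 3 (adjusted p = 0.0477, edgeR). The other 2 genes with this anticodon, whose mature sequences differ by name, had far lower levels. TRL-TAG2-1 on chromosome 14 fell from 168 ± 40.4 to 62.7 ± 23.1 CPM (SD, n = 3), by 1.42 on the log2 scale (SE 0.32; adjusted p = 0.0304, edgeR). TRL-TAG3-1 on chromosome 16 went from 99.8 ± 43.3 to 41.4 ± 16.9 CPM (SD, n = 3), which the fit put at -1.27 on the log2 scale (adjusted p = 0.0959, edgeR).

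TRK-TTT3-5, a lysine tRNA gene with anticodon TTT (positions 8119155 to 8119227, plus strand), had the lowest adjusted p of the cluster. Its window had 121, 73.6 and 77.5 CPM under control siRNA and 31.9, 35.9 and 54.8 CPM under La siRNA. The arms did not overlap, and La knockdown replicate 3 was again the highest of its arm. The log2 fold change was -1.15 (SE 0.31; adjusted p = 0.0605, edgeR). It ranged from -0.89 without control replicate 1 (adjusted p = 0.208, edgeR) to -1.49 without La knockdown replicate 3 (adjusted p = 0.0225, edgeR). Without La knockdown replicate 1 it was -1.02 (adjusted p = 0.273, edgeR). Of the 4 other copies of this mature sequence, with log2 fold changes from -1.74 to -0.57, 3 were called lower.

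Both tryptophan genes read the anticodon CCA. TRW-CCA1-1 had 16.7, 37.8 and 9.59 CPM under control siRNA and 6.10, 9.43 and 10.1 CPM under La siRNA. Control replicate 2 stood well above the others, and the arms overlapped. The log2 fold change was -1.31 (SE 0.49; adjusted p = 0.156, edgeR). Without control replicate 2 it was -0.63 (adjusted p = 0.409, edgeR), so its size rested on that library. The overlapping unnamed window tRNA_51403, whose level was at or just below that of TRW-CCA1-1 in every library, had -1.30. TRW-CCA3-3 had a log2 fold change of -0.52, and control replicate 2 was its highest library too, with 18.3 CPM against at most 8.51 CPM in any other. Without control replicate 2 its log2 fold change turned to 0.11 (adjusted p = 0.898, edgeR).

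The threonine genes all carry the anticodon AGT, and none of them showed overlap between the arms. TRT-AGT1-1 had 38.6, 48.5 and 42.5 CPM under control siRNA and 27.6, 35.4 and 24.9 CPM under La siRNA, a log2 fold change of -0.56 (SE 0.27; adjusted p = 0.224, edgeR). TRT-AGT1-2, a copy of the same mature sequence in the group in CTC1, had -0.73 as its log2 fold change (adjusted p = 0.146, edgeR). TRT-AGT5-1, with a mature sequence of its own, had -1.09 as its log2 fold change (adjusted p = 0.157, edgeR) on a mean of 32.7 counts.

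Isoleucine, glutamine and arginine genes lay in the middle of the range. TRI-AAT5-5 had 31.6, 31.9 and 30.1 CPM under control siRNA and 22.6, 11.5 and 26.1 CPM under La siRNA, without overlap (log2 fold change -0.64, SE 0.33, edgeR adjusted p = 0.247). TRI-AAT4-1 had -0.76 as its log2 fold change (adjusted p = 0.366, edgeR), and in La knockdown replicate 3 it had 14.8 CPM against 3.94 and 3.24 CPM in the other 2 libraries of the arm. Without that library the log2 fold change was -1.87 (adjusted p = 0.0352, edgeR), and TRI-AAT4-1 was then 1 of 3 members called lower, with TRL-TAG1-1 and TRK-TTT3-5, in a fit that called 8.60% of all windows lower. Its value was -0.41 without La knockdown replicate 2, -0.44 without control replicate 1 and -0.49 without La knockdown replicate 1 (adjusted p = 0.709, 0.725 and 0.686, edgeR).

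TRQ-CTG1-5, a glutamine gene, had 186, 121 and 141 CPM under control siRNA and 99.7, 96.9 and 110 CPM under La siRNA. The arms did not overlap, and the log2 fold change was -0.55 (SE 0.25; adjusted p = 0.208, edgeR). TRR-TCT2-1, an arginine gene of a family that carries an intron, had 66.3, 61.2 and 67.4 CPM under control siRNA and 45.5, 33.9 and 63.3 CPM under La siRNA. The arms overlapped because of La knockdown replicate 3, and the log2 fold change was -0.45 (SE 0.28; adjusted p = 0.304, edgeR).

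Aspartate, glycine and proline windows had values close to 0 on the log2 scale. TRD-GTC2-11 had 2376, 2353 and 2633 CPM under control siRNA and 3056, 2257 and 2395 CPM under La siRNA, a log2 fold change of 0.07 (SE 0.21; adjusted p = 0.848, edgeR). TRG-GCC2-6 had 895, 797 and 856 CPM under control siRNA and 783, 747 and 896 CPM under La siRNA, a log2 fold change of -0.07 (SE 0.21; adjusted p = 0.841, edgeR). TRP-CGG1-3 had 83.8, 59.4 and 68.9 CPM under control siRNA and 60.2, 54.8 and 81.9 CPM under La siRNA, a log2 fold change of -0.11 (SE 0.26; adjusted p = 0.799, edgeR). In each of these windows the arms overlapped, and the sign changed with the scaling: TRG-GCC2-6 had 0.25 and TRP-CGG1-3 0.22 with upper quartile factors, and TRD-GTC2-11 had -0.025 with library size alone. The second glycine gene, TRG-TCC3-1, had -0.35 as its log2 fold change (adjusted p = 0.350, edgeR) without overlap of the arms.

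The serine genes differed among themselves. TRS-AGA2-6 had 111, 108 and 133 CPM under control siRNA and 125, 185 and 127 CPM under La siRNA, the highest fitted log2 fold change of the cluster at 0.31 (SE 0.25; adjusted p = 0.413, edgeR). Its arms overlapped, and La knockdown replicate 2 was its highest library, without which the log2 fold change was 0.083. TRS-GCT4-3, whose window also holds MIR4521, had 192, 108 and 105 CPM under control siRNA and 73.5, 57.4 and 115 CPM under La siRNA, a log2 fold change of -0.72 (SE 0.34; adjusted p = 0.222, edgeR). Reads of the tRNA and of miR-4521 were not separated in that count. TRS-CGA1-1 had the fewest reads of the cluster, a mean of 10.7 counts, and a log2 fold change of -0.98 (adjusted p = 0.224, edgeR) without overlap.

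Members were set beside the copies of their mature sequence, in the cluster or elsewhere. Of 8 members with at least 2 other copies of the same mature sequence tested, 5 lay between the lowest and the highest of those copies. TRD-GTC2-11, at 0.07, lay just above its 10 copies, which ran from -0.0045 to 0.060, with mean counts from 8351 to 10841 beside 8501 for the member. The 5 other copies of TRS-AGA2-6 ran from 0.07 to 0.30, and those of TRG-GCC2-6 from -0.17 to -0.06. TRT-AGT1-1 was the third above its range, at -0.56 beside -0.87 and -0.73. Since copies can share reads, these values are not independent measurements of each gene. The 7 members with a single RefSeq copy had a median log2 fold change of -0.98, ranging from -1.55 to -0.35, and the 11 with further copies a median of -0.55, ranging from -1.15 to 0.31. In both groups 0 members were called.

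Summed over all 20 windows, the cluster had 15362, 10451 and 8492 CPM in the control libraries (replicates 1 to 3) and 7043, 4656 and 7966 CPM after La knockdown. The arms did not overlap. The mean was 11435 ± 3539 CPM under control siRNA and 6555 ± 1708 CPM under La siRNA (SD, n = 3), a difference in mean log2 level of -0.79 (two-sided exact permutation p = 0.1, the smallest possible with 3 against 3). TRL-TAG1-1 made up 60.4% ± 11.6 of the cluster's counts under control siRNA and 35.1% ± 13.8 under La siRNA (SD, n = 3). Without TRL-TAG1-1 the sum was 4273 ± 200.2 and 4101 ± 407 CPM (SD, n = 3), a difference of -0.06 in mean log2 level (exact permutation p = 0.7), so the difference of the sum rested on this window. Most of the remaining sum was TRD-GTC2-11 (means 2454 and 2569 CPM) and TRG-GCC2-6 (849 and 809 CPM). Their log2 fold changes were 0.07 and -0.07. The remaining sum therefore says little of the less read members, most of which had negative log2 fold changes. With upper quartile factors the difference of the full sum was -0.48 and the arms no longer separated fully (exact permutation p = 0.3).

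By position, the summed level was lower in every La knockdown library than in every control library in the first 3 groups and overlapped in the other 2. The sum of all tRNA windows outside the cluster was also lower without overlap. The first group went from 8316 ± 3575 to 3453 ± 1546 CPM, and without TRL-TAG1-1 from 1154 ± 108 to 999 ± 110 CPM with overlap (SD, n = 3). The second group went from 16.7 ± 1.57 to 7.92 ± 2.86 CPM and the third from 220.2 ± 42.8 to 139 ± 32.4 CPM (SD, n = 3). The 2 windows of the second group had means of only 10.7 and 32.7 counts. The fourth, in LINC00324, had 2719 ± 129 and 2782 ± 421 CPM, and the fifth, in CTC1, 164 ± 15.8 and 173 ± 31.3 CPM (SD, n = 3). TRD-GTC2-11 made up most of the fourth sum and TRS-AGA2-6 most of the fifth, so these sums describe mainly those windows. The other members of the fifth group, TRT-AGT1-2 and TRI-AAT4-1, had log2 fold changes of -0.73 and -0.76.

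Against the other tRNA windows the cluster held 9.22%, 7.08% and 5.87% of all tRNA window counts in the control libraries (replicates 1 to 3) and 5.76%, 4.54% and 6.04% after La knockdown. The arms overlapped, since La knockdown replicate 3 exceeded control replicate 3. The log2 ratio of the cluster to the other tRNA windows differed by -0.46 between the arms (exact permutation p = 0.2), and by -0.27 without control replicate 1 (exact permutation p = 0.4). With TRL-TAG1-1 left out the ratio turned in direction, while the sum of the remaining members was 4273 and 4101 CPM and that of the other tRNA windows was 141550 ± 8488 CPM under control siRNA and 112373 ± 13323 CPM under La siRNA (SD, n = 3), without overlap. The other 19 windows then held 2.93% ± 0.166 of the remaining tRNA window counts under control siRNA (SD, n = 3). Under La siRNA they held 3.53% ± 0.284 (SD, n = 3), without overlap. The log2 ratio differed by 0.28 (exact permutation p = 0.1, the smallest possible). Most counts of these 19 windows came from the aspartate window and the more highly read glycine window, with log2 fold changes of 0.07 and -0.07. The higher share therefore describes mainly those windows. The median log2 fold change of the members, -0.60, lay below the -0.42 of the other tRNA windows tested.

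**Figure D3:**
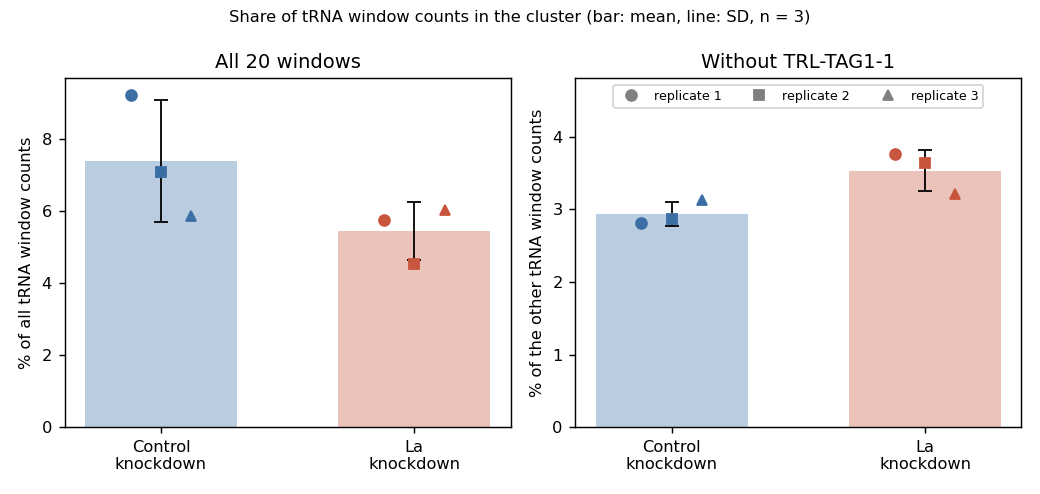
Share of tRNA window counts that fell in the cluster, in percent, for all 20 windows (left) and without TRL-TAG1-1 in the cluster and the total (right). Symbols are replicates, bars the mean and black lines the SD of 3 libraries. The arms overlap on the left. On the right the La knockdown libraries, from 3.21% to 3.76%, lie above the control libraries, from 2.82% to 3.12%. Most cluster counts on the right are those of the aspartate window and the more highly read glycine window.

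The cluster was then set against 3 other tRNA clusters chosen by position, a comparison in which 3 against 3 libraries cannot give a p under 0.1. The log2 ratio of the chromosome 17 cluster to the cluster on chromosome 6 (148 windows starting from 26000000 to 29000000) differed by -0.44 between the arms, and by -0.26 without control replicate 1. The ratio to the cluster on chromosome 16 (14 windows from 3000000 to 3400000) differed by -0.09, and that to the cluster on chromosome 1 (35 windows on its long arm) by -0.68 (exact permutation p = 0.3, 0.8 and 0.2, adjusted over the 3 to 0.45, 0.8 and 0.45). Without TRL-TAG1-1 the differences were 0.29, 0.65 and 0.05, each with an exact permutation p = 0.1, the smallest possible. The cluster's side of these ratios was again mostly the aspartate window and the more highly read glycine window. The members' median log2 fold change of -0.60 stood beside -0.48 on chromosome 6, -0.37 on chromosome 16 and -0.16 on chromosome 1. Windows called lower were 9 of 130 tested, 1 of 12 and 0 of 32 in these clusters.

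By amino acid, the summed level in the cluster was lower without overlap of the arms for Leu, Lys, Gln and Thr, with differences of -1.64, -1.15, -0.53 and -0.69 in mean log2 level (each exact permutation p = 0.1, adjusted over 11 amino acids 0.275). For the other 7 the arms overlapped, with differences from -0.84 for Trp to 0.06 for Asp. Outside the cluster, tRNA windows of the same amino acid had differences of -1.09 for Lys, -0.51 for Gln, -0.86 for Thr and 0.02 for Asp. Their summed level was lower without overlap for Gly, Ile, Lys, Pro, Gln, Arg, Ser and Thr, and the arms overlapped for Asp, Leu and Trp. Separation of the arms was thus not particular to the cluster. The log2 ratio of the cluster's windows to those elsewhere did not overlap between the arms for 3 amino acids. The difference was -1.55 for Leu, 0.60 for Pro and 0.22 for Gly (each exact permutation p = 0.1, adjusted over 11 to 0.367). In the leucine comparison the 26 windows elsewhere carry several anticodons, with 5580 ± 675 and 5335 ± 1309 CPM in sum (SD, n = 3). The glycine and proline windows elsewhere also carry several anticodons. Against windows elsewhere with the same anticodon, the log2 fold change of TRL-TAG1-1 was -1.55 beside a median of -1.35. For TRG-GCC2-6 it was -0.07 beside -0.09, and for TRG-TCC3-1 -0.35 beside -0.37. TRP-CGG1-3 had -0.11 beside -0.57 in the 1 other window with its anticodon.

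**Figure D4:**
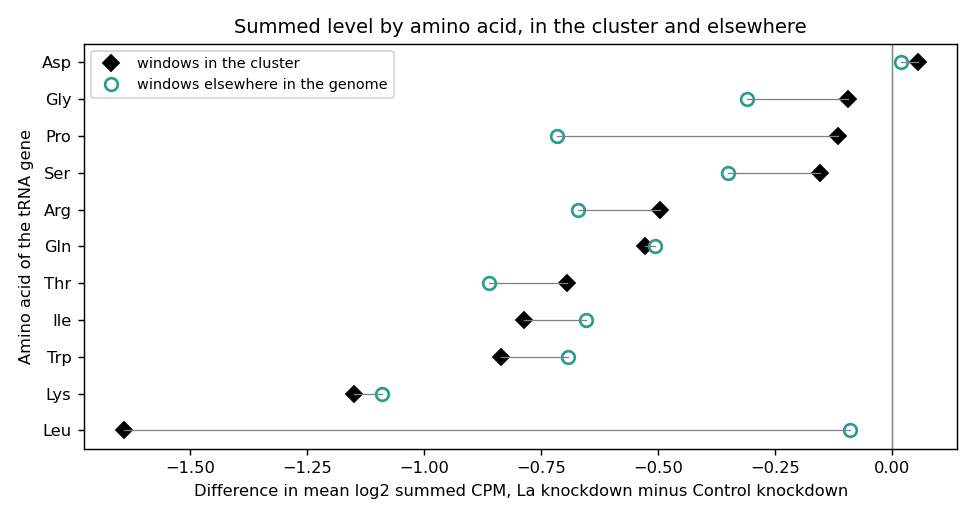
Difference in mean log2 summed CPM between the arms, La knockdown minus Control knockdown, by amino acid of the tRNA gene, for the windows in the cluster (black diamonds) and for tRNA windows of the same amino acid elsewhere (open circles). Leu stands at -1.64 in the cluster and -0.09 elsewhere, and Pro at -0.11 and -0.72. The windows elsewhere carry several anticodons for both. The 2 leucine genes elsewhere with the anticodon of TRL-TAG1-1 had fitted log2 fold changes of -1.42 and -1.27. For Lys, Gln and Asp both points lie close together.

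The interval also held 37 windows of other classes, none of which overlapped a member. Of these, 36 were too weakly read to be tested, with at most 10 counts over all 6 libraries. The exception was the window of SNORD118, the U8 small nucleolar RNA, inside TMEM107 (positions 8173339 to 8173738). It had 5152, 5067 and 3711 CPM under control siRNA and 4386, 2668 and 4818 CPM under La siRNA, with overlap of the arms (log2 fold change -0.23, edgeR adjusted p = 0.561).

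Other RNA polymerase III genes serve as a reference for the size of the members' values. Of 21 listed genes 20 had a window, and of their 24 windows 21 were tested, with 2 lower, 0 higher and a median log2 fold change of 0.04. RN7SK, RN7SL1, RN7SL2 and RMRP each entered with 2 overlapping windows, all with positive values, so the 21 windows stand for fewer genes. The 2 called lower were those of VTRNA1-1 and VTRNA1-2, small RNAs named after the cytoplasmic vault particle, with log2 fold changes of -1.86 and -2.20 (edgeR adjusted p = 0.0103 and 0.00565). Without La knockdown replicate 1 the fit called 0 of these windows. No member of the cluster reached a fitted fall of that size, the nearest being TRL-TAG1-1.

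The authors' deposited table called 2 of the 20 members lower at an adjusted p under 0.05, beside 0.149% of its 53603 windows and 7.52% of those tested here. For TRL-TAG1-1 the authors' deposited table gave -1.74 on the log2 scale (adjusted p 2.93e-05), and for TRK-TTT3-5 it gave -1.39 (adjusted p 0.0386). Values were negative for 19 of the 20 members in the authors' deposited table, with a median of -0.86 beside -0.32 over the windows tested here.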

How the data were processed

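The authors deposited raw read counts of 400 bp windows in 6 libraries, and a table of their own comparison with a log2 fold change, an F statistic (a score) and p-values, per the file headers. The submitters' processing notes name Trim Galore, Bowtie2, bedtools, edgeR and the build GRCh38, without roles or versions. Strand and multi-mapping are not given in the sources used here. Small RNA was treated with phosphatase and then kinase before library preparation, per the labels' protocols.

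Counts were tested with edgeR 4.0.16 in R 4.3.3 (filterByExpr, TMM factors, quasi-likelihood fit over all windows, arm as the single term). DESeq2 1.42.0 was an alternative. SE came from the log2 fold change and F. For sums and ratios an exact permutation test over libraries, two-sided, was used. CPM are TMM-scaled. On simulated data 200 windows carried a log2 change of 2, and 188 to 191 of these passed the filter. The fit of La knockdown against Control knockdown over 1059 to 1076 windows recovered 98.9% to 99.5% of the changed windows that passed, with 8 to 11 false calls. All simulated windows had the same spread between libraries, and the largest fitted change of a member was -1.55. The simulation therefore does not measure how often changes of the members' size and spread would be called.

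Full values are given for members called, for the highest member of each amino acid, for the 3 lowest and 3 highest log2 fold changes with a mean of at least 20 counts, and for SSB; TRS-GCT4-3 was added for MIR4521. The members and lists were chosen with earlier results of these data known. Comparisons with copies, positions and ratios by amino acid were chosen after the values were seen.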

Additional observations from a re-analysis of the deposited data

How the results depend on the processing

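Members lower in La knockdown, 0 with all libraries, were 2 with library size alone, 2 with DESeq2 and 4 without a filter, where 6.48%, 7.14% and 0.476% of all windows in those fits were called lower. The 4 included TRW-CCA1-1 and the overlapping tRNA_51403, whose counts are nearly the same. Over fits that left out 1 library the members lower were 0 to 3 and all windows lower 0% to 8.60%, with 3 members without La knockdown replicate 3 and 1 without control replicate 3. At an unadjusted p under 0.05 the members lower ranged from 2 with upper quartile factors to 13 without a filter, beside 6. No setting called a member higher. The median of the members, -0.60, was -0.28 with upper quartile factors, which moved the median of all windows by 0.32, and -0.78 to -0.51 without 1 library. A block for the replicate number gave 2 lower members, TRL-TAG1-1 and TRK-TTT3-5 (edgeR adjusted p = 3.8e-06 and 0.0239), where it called 8.27% of all windows lower. Deviations from the arm means correlated at 0.14, 0.23 and -0.46 between same-numbered libraries. With 3 libraries in each arm such deviations depend on each other, so the correlations cannot settle whether the numbers mark a pairing. Windows near 0 changed sign, as did TRW-CCA3-3, at -0.52 with all libraries and 0.11 without control replicate 2. With upper quartile factors TRG-GCC2-6 was 0.25 and TRP-CGG1-3 0.22, and the sums for Gly, Pro and Ser differed by 0.22, 0.20 and 0.17. With library size alone TRD-GTC2-11 was -0.025 and the Asp sum -0.021, and without a filter TRD-GTC2-11 was -0.19. Without 1 library TRD-GTC2-11 ranged from -0.10 to 0.14, TRP-CGG1-3 from -0.37 to 0.030, the Asp sum from -0.076 to 0.14, the Pro sum from -0.29 to 0.015 and the ratio to chromosome 16 from -0.29 to 0.079. Without TRL-TAG1-1 the cluster's ratios turned to 0.28 for all other tRNA windows and to 0.29, 0.65 and 0.052 for chromosomes 6, 16 and 1, and its summed level, chosen after the data were seen, was -0.063. The summed level kept its sign in all 11 alternatives but was -0.48 (exact permutation p = 0.3) with upper quartile factors. Without 1 library the ratio to all other tRNA windows ranged from -0.62 to -0.27, to chromosome 6 from -0.62 to -0.26 and to chromosome 1 from -0.90 to -0.47. Apart from the shift of upper quartile factors and the windows left out, the cause was not tested. The ratio to another cluster was not run with all windows as denominator, since it then no longer compares clusters. How detection varied with the count of a window was not tested.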
